A study of Mus musculus with 4 samples.

Results

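The Hox genes are the 39 rows of the deposited gene tables whose symbols name a member of the HoxA, HoxB, HoxC or HoxD cluster, out of 20299 genes in all. They were chosen by symbol alone, with no measured value. The HoxA cluster holds 11 of them, the HoxB cluster 10 (chr11:96055674-96229567, mm9), the HoxC cluster 9 (chr15:102751561-102867283) and the HoxD cluster 9 (chr2:74506366-74603199). RNA was sequenced strand-specifically from 4 samples of fetal mouse gonads at 15.5 dpc (days post coitum), 1 library each of male germ cells, female germ cells, male somatic cells and female somatic cells. All 4 came from offspring of CF1 mothers and TgOG2 fathers, whose transgene makes green fluorescent protein (GFP) from the Oct4 promoter. Germ cells were the GFP-positive cells of the sorted gonads, and the somatic samples were the GFP-negative remainder, with every cell type of the gonad that lacks the reporter. The labels do not state how many fetuses or litters went into a library.

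Hox genes encode homeodomain transcription factors that give cells along the head-to-tail axis their regional identity. Their order along each cluster follows the order in which they are used: low paralogue numbers act in anterior and high paralogue numbers in posterior structures, and both Polycomb repression and retinoic acid are known to set where each gene is on. The gonad forms from the intermediate mesoderm of the trunk beside the mesonephros, and several posterior HoxA and HoxD genes are textbook regulators of the kidney and of the ducts of the reproductive tract. The title of the series concerns broad transcription at low level in male germ cells, so the Hox genes are a set in which weak signal in germ cells can be set against strong signal in the surrounding cells.

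Values are the deposited gene signal per 1 M of a library's scaled total (SPM), M standing for mega. SPM compares 1 gene between libraries. Where genes are compared with each other, SPM per kb of the gene length listed in the files is used. In a GRCm38 annotation (GENCODE M21), 10 of the 39 Hox genes share exon bases with a gene on the opposite strand and 9 with one on the same strand, and their reads may be split or shared. Depth was estimated at 24.9 M read units for male and 17.5 M for female germ cells, and 17.6 M for male and 24.2 M for female somatic cells. A read unit is the spacing at which low deposited values cluster, taken as the worth of 1 read or read pair. A gene listed at 0 in female germ cells, 1 of the 2 shallowest libraries, may still have stood at up to 0.179 SPM (3 read units). Markers followed the sort: the 7 germ cell markers summed to 5479 SPM in male and 3743 SPM in female germ cells, against 34.0 SPM in male and 9.21 SPM in female somatic cells.

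Hox signal was mainly somatic, and within the somatic cells it was mainly HoxD. Per kb of gene, the 39 genes summed to 15.4 SPM in male and 30.3 SPM in female germ cells, and 194 SPM in male and 86.9 SPM in female somatic cells. In bulk RNA, fewer cells that transcribe a gene and less RNA per cell cannot be told apart. HoxD genes supplied 37.1% of this sum in male and 81.4% of it in female germ cells, and 83.3% in male and 62.1% in female somatic cells. The HoxC cluster was the other large somatic contributor, with 2.69 SPM per kb in male and 1.11 SPM per kb in female germ cells, against 25.7 SPM per kb in male and 24.3 SPM per kb in female somatic cells. HoxA stayed between 1.98 and 5.39 SPM per kb in all 4 libraries. HoxB gave 4.99 SPM per kb in male and 0.205 SPM per kb in female germ cells, against 3.16 SPM per kb in male and 3.25 SPM per kb in female somatic cells. It was 32.5% of the male germ Hox sum but 0.7% of the female germ sum.

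**Figure D1:**
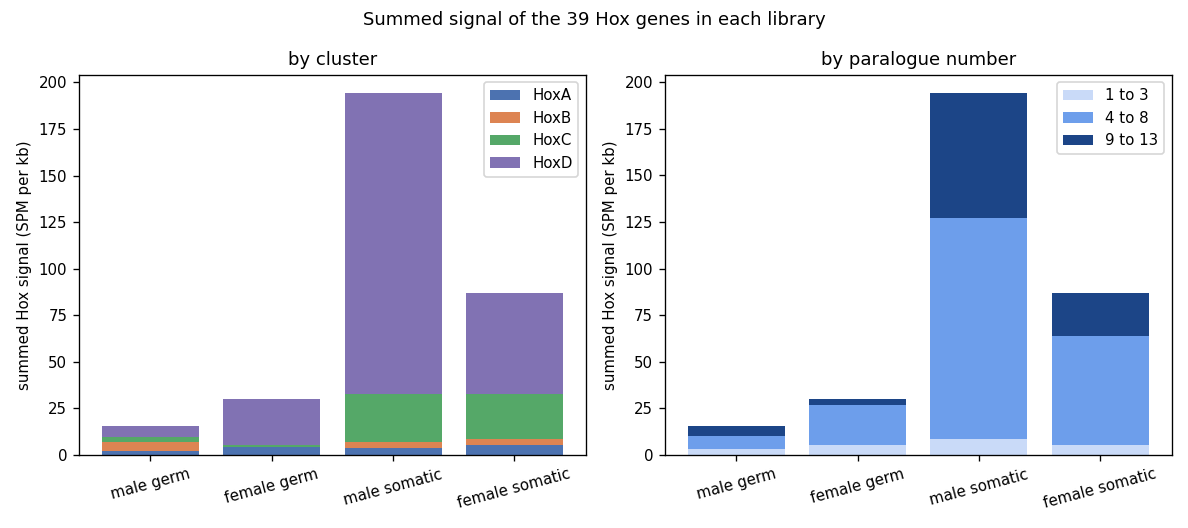
Summed signal of the 39 Hox genes in SPM per kb (vertical axis from 0) in each of the 4 libraries, stacked by cluster on the left and by paralogue number on the right. The germ bars reach 15.4 (male) and 30.3 (female), below the somatic bars at 194 (male) and 86.9 (female), and HoxD is the largest block in each bar.

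Grouped by paralogue number, the somatic sum was largest in the middle class, to which a few HoxD genes gave much of the signal. Hoxd4 gave 17.7% of the male and 15.3% of the female somatic sum per kb, and Hoxd8 29.3% and 20.7%. In the class above, Hoxd9 gave 16.2% and 12.0%, and Hoxd10 14.5% and 8.9%. Genes numbered 4 to 8 gave 61.3% of the male somatic sum and 67.2% of the female somatic sum per kb, and genes numbered 9 to 13 gave 34.4% and 26.6% in the same libraries. The posterior end of every cluster was near 0 in somatic cells: Hoxa13, Hoxb13, Hoxc11, Hoxc12 and Hoxd13 were listed at 0 in both somatic libraries. Hoxc13 stood at 0.0591 SPM and Hoxd12 at 0.266 SPM in male somatic cells, and both were listed at 0 in female somatic cells. Hoxa11 was listed at 0 in male somatic cells and stood at 0.282 SPM in female somatic cells. Hoxb1 and Hoxd1 were also low there, at 0.118 SPM or less. Across the 39 genes the somatic libraries of the 2 sexes ranked the genes alike (Spearman's rho 0.91), the germ libraries of the 2 sexes less so (0.39), and a germ with a somatic library hardly at all (0.16 to 0.20). These are correlations over genes of the same clusters, which share libraries and in part exons, and they are given as a description.

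**Figure D2:**
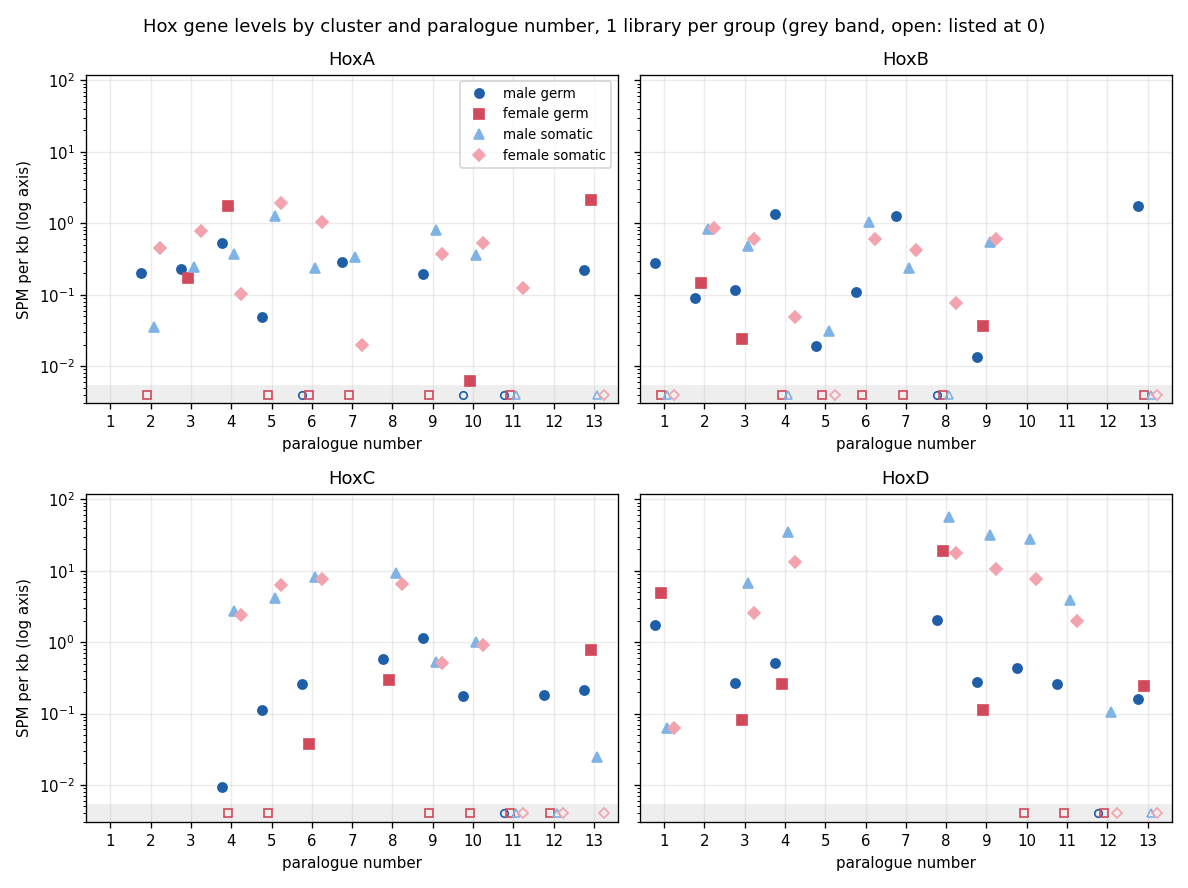
SPM per kb (log axis) of the Hox genes reported here against paralogue number, in 1 panel per cluster, with 1 point per library and values of 0 drawn open in the grey band. Somatic points form a hump over HoxC 4 to 8 and HoxD 3 to 11, where most germ points lie lower. Both germ points lie above both somatic points at Hoxd1, Hoxa4, Hoxa13, Hoxc13 and Hoxd13, named after their values were seen, with no share over all genes counted.

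In the HoxD cluster the 9 genes lie side by side within 96.8 kb, yet neighbours differed in which library held their signal. The promoter windows of 5 of them are shown because Hoxd4, Hoxd9 and Hoxd10 had mainly somatic signal, Hoxd8 also had strong signal in female germ cells, and Hoxd1 had its signal in germ cells. Each window runs from 250 bases before to 50 bases after a RefSeq gene start on the + strand of GRCm38.p6. The windows are chr2:74762730-74763029 for Hoxd1, chr2:74721728-74722027 for Hoxd4, chr2:74704365-74704664 for Hoxd8, chr2:74697513-74697812 for Hoxd9 and chr2:74691641-74691940 for Hoxd10. They are written 5′ to 3′ with every CG dinucleotide, the usual site of DNA methylation, in capitals.
Hoxd1: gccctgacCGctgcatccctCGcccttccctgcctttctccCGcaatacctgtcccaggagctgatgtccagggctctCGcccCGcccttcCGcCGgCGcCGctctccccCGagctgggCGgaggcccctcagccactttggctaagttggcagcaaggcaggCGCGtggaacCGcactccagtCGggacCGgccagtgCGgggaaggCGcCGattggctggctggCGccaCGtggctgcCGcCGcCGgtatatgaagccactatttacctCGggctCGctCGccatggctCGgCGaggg
Hoxd4: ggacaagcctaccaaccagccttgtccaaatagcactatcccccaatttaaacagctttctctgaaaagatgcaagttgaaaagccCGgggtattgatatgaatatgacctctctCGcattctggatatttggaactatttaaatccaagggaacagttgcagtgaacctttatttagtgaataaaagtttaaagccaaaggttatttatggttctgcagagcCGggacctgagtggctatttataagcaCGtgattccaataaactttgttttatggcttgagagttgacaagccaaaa
Hoxd8: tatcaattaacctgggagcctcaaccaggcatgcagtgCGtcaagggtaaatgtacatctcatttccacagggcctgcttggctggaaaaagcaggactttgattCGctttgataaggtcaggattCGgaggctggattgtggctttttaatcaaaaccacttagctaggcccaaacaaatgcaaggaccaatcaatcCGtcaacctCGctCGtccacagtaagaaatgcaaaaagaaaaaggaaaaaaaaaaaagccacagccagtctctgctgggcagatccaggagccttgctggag
Hoxd9: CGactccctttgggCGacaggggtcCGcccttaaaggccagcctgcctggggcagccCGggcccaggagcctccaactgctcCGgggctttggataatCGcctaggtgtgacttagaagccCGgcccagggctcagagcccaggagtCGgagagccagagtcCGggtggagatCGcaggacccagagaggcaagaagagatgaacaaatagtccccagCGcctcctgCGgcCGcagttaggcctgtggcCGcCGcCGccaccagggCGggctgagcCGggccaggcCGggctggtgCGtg
Hoxd10: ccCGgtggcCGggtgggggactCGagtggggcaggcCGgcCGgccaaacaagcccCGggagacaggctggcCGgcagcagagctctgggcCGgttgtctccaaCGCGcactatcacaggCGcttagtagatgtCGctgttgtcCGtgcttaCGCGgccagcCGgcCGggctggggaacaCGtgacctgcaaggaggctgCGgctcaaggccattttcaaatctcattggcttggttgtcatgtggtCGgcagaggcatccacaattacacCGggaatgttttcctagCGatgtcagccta

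The Hoxd1 window held 29 CG dinucleotides, the Hoxd10 window 22 and the Hoxd9 window 20, against 6 in the Hoxd8 window and 4 in the Hoxd4 window. RefSeq starts need not match the gene starts listed with the deposited signal. Placed by its neighbours Hoxd4 and Hoxd9, the Hoxd8 window lies upstream of the listed Hoxd8 start and does not include it. The median was 14.5 CG dinucleotides over the 24 windows available for 22 of the 39 Hox genes and 7 over all 32851 windows of the same length. An observed to expected CG ratio of at least 0.6 was reached by 12 of the 24 Hox windows (50%), Hoxd1 (0.80) and Hoxd10 (0.75) among them, against 35.8% of all windows. The ratio was 0.57 for Hoxd9, 0.37 for Hoxd8 and 0.34 for Hoxd4. The motif TTTATNG, a core of Cdx factor sites, was searched on both strands and found in 2 Hox windows (8.3%, against 10.9% of all windows), with 3 matches each in Hoxd4 and Hoxb8. TGATNNAT, a paired Hox and Pbx motif, was in 4 Hox windows (16.7%, against 8.8%), and TGACAG, a Meis motif, in 2 (8.3%, against 19.2%). None of the 5 printed windows held either of these, nor was DNA methylation or factor binding measured in these files.

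Germ cells were set against somatic cells in the 1 comparison with 2 libraries on each side. A set of 7 Hox genes was lower in germ cells: Hoxc4, Hoxc5, Hoxc6, Hoxc8, Hoxd4, Hoxd9 and Hoxd10. None passed as higher. The test was limma on log2(SPM + 0.5) with Benjamini-Hochberg adjustment over all 14148 genes tested and a threshold of 0.05, by which 5.56% of genes were called lower and 2.50% higher in germ cells. At an unadjusted p under 0.05 limma listed 15 Hox genes as lower and Hoxd1 as higher, where 18.7% of all genes tested were lower and 12.7% higher. The filter of at least 1 SPM in at least 2 libraries left 17 Hox genes, and 13 of those reached 1 SPM in somatic libraries alone, so the filter itself fixed their direction and the count of calls is a description. Hoxd1 reached 1 SPM in germ libraries alone, and Hoxc8, Hoxd4 and Hoxd8 did so in a library of each fraction. The median log2 ratio of germ over somatic was -2.67 over the 17 Hox genes and -0.11 over all genes tested. The other 22 Hox genes were not tested, of which 10 reached 1 SPM in 1 library and 12 in none. With no filter on low values none of the 7 passed (limma adjusted p 0.0733 to 0.0936), and with a pseudocount of 5 SPM 3 did. With sex as a term 10 Hox genes passed as lower and 1, Hoxd1, as higher, and without a mean-variance trend 9 and 1 did. The sex term takes the sex difference to be the same in germ and somatic cells, which was not so for Hoxd8. It also leaves less data from which to estimate the spread, so its smaller p-values rest on that assumption. Because the sexes served as the 2 samples of a cell type, p-values measure the spread between these 4 libraries, sex difference included.

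Hoxd4, a retinoic acid target that patterns the cervical vertebrae (chr2:74560034-74567216, mm9), ranked second per kb among the Hox genes in both somatic libraries. Its level was 1.29 SPM in male and 0.661 SPM in female germ cells, against 88.3 SPM in male and 34.1 SPM in female somatic cells. Both germ libraries lay far below both somatic libraries, with a log2 ratio of germ over somatic of -5.27 ± 0.79 (SE from limma with n = 2 libraries a side, adjusted p = 0.0358). Without the male somatic library the call was lost (limma adjusted p = 0.104). In the files the Hoxd4 interval lies inside that of Hoxd3, and in the same annotation the 2 genes share 388 exon bases on the same strand, so reads there cannot be assigned to 1 of them.

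Hoxd9, a gene of the lumbar spine and the limb (chr2:74535819-74538265), stood at 0.585 SPM in male and 0.237 SPM in female germ cells, against 66.1 SPM in male and 21.8 SPM in female somatic cells. It reached 1 SPM in somatic libraries alone, so the filter fixed the order of its groups. The log2 ratio was -5.43 ± 0.83 (limma adjusted p = 0.0358), the most negative of the 17. Hoxd10, which specifies lumbar motor neurons and hindlimb innervation (chr2:74530004-74533159), had 0.768 SPM in male and 0 SPM in female germ cells, against 50.4 SPM in male and 13.8 SPM in female somatic cells. Hoxd10 too passed the filter through somatic libraries alone, and its log2 ratio was -5.08 ± 0.96 (limma adjusted p = 0.0444). That call was lost in 5 of 11 other settings, among them without the female germ library (limma adjusted p = 0.0637) and with upper-quartile scaling (0.0542).

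The 4 called HoxC genes sit next to each other and pattern the lower neck and thorax. Hoxc5 (chr15:102844438-102847860) had 0.302 SPM in male and 0 SPM in female germ cells, against 11.2 SPM in male and 17.5 SPM in female somatic cells. Its log2 ratio was -4.52 ± 0.69 (limma adjusted p = 0.0358), with the order fixed by the filter, which it passed through somatic libraries alone. Hoxc6 (chr15:102839992-102842312) had 0.411 SPM in male and 0.0592 SPM in female germ cells, against 13 SPM in male and 12.2 SPM in female somatic cells. Its log2 ratio was -4.19 ± 0.66 (limma adjusted p = 0.0367), with nearly equal levels in the somatic libraries.

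Hoxc4 (chr15:102864825-102867283), the most anterior gene of its cluster, had 0.0183 SPM in male germ cells, less than 1 read unit, and 0 in female germ cells, against 5.35 SPM in male and 4.68 SPM in female somatic cells. The log2 ratio was -3.44 ± 0.58 (limma adjusted p = 0.0382, or 0.0524 without the female germ library). Hoxc8, a gene of the thoracic spine and of brachial motor neurons (chr15:102820969-102824685), had 1.38 SPM in male and 0.690 SPM in female germ cells, against 21.7 SPM in male and 15.5 SPM in female somatic cells. Its log2 ratio was -3.65 ± 0.69 (limma adjusted p = 0.0449). This call was lost without the male somatic library (limma adjusted p = 0.28), without the female somatic library (0.18) and in 4 of 11 other settings. Leaving out a somatic library left just 4 Hox genes to test, of which 0 passed without the male and 1 without the female somatic library. With the male germ library left out 8 Hox genes passed, and with the female germ library left out 5 did.

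Hoxd3, which patterns the first cervical vertebrae (chr2:74550049-74586328), followed the same order without passing, at 0.768 SPM in male and 0.237 SPM in female germ cells, against 19.4 SPM in male and 7.37 SPM in female somatic cells. The log2 ratio was -3.69 ± 0.80 (limma adjusted p = 0.0551, or 0.0406 without the male germ library and 0.00587 with sex as a term). Other genes with the same order did not pass either. Hoxa5, needed for lung and neck development, had 0.0914 SPM in male germ cells and none listed in female ones, against 2.40 SPM in male and 3.61 SPM in female somatic cells (limma adjusted p = 0.0558, or 0.02 with sex as a term). Hoxa10, Hoxb2, Hoxb3, Hoxb9, Hoxc10 and Hoxd11 had log2 ratios between -2.43 and -1.45, with limma adjusted p between 0.0767 and 0.145. These 6, like Hoxd3 and Hoxa5, reached 1 SPM in somatic libraries alone, so the filter itself fixed their order. Of these 6, Hoxd11 passed with sex as a term (limma adjusted p = 0.0342).

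**Figure D3:**
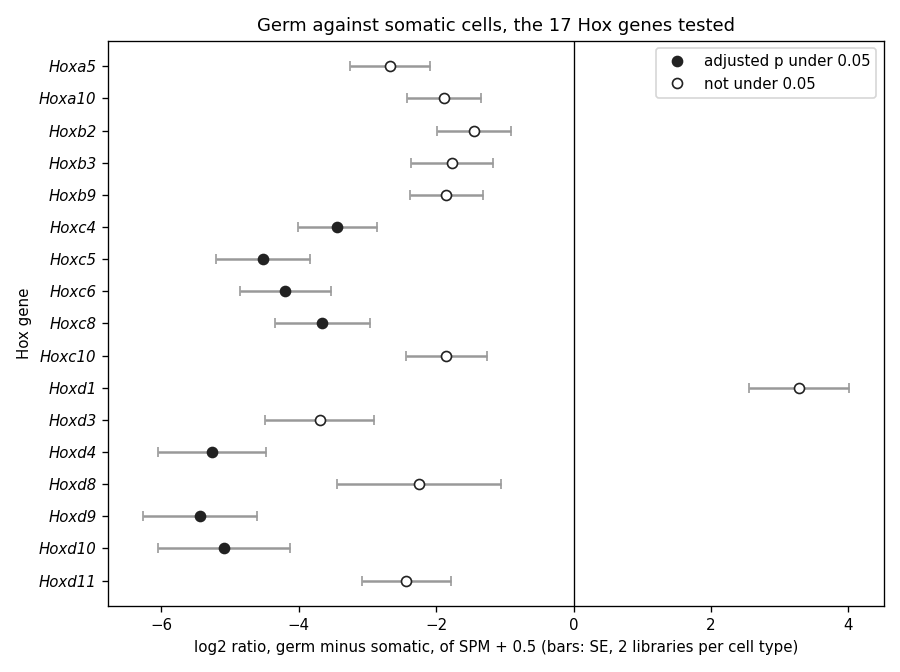
Log2 ratio of germ over somatic SPM + 0.5 (horizontal axis) for the 17 tested Hox genes, as points with standard errors from limma over 2 libraries per cell type. Filled points passed an adjusted p of 0.05. All but Hoxd1, at 3.28, lie left of 0.

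Among the 17 Hox genes tested, Hoxd1 alone had the opposite pattern. Low genes that were not tested, such as Hoxa4, Hoxa13, Hoxc13 and Hoxd13, also had both germ libraries above both somatic libraries. These are named after their values were seen, and the share of all genes with this order was not counted. Some rest on few read units, such as Hoxd13 with 11 in male and 10 in female germ cells. Hoxd1 is the most anterior gene of its cluster (chr2:74601036-74603199) and is known in mice from sensory neurons. Its level was 3.26 SPM in male and 9.07 SPM in female germ cells, against 0.118 SPM in male and 0.117 SPM in female somatic cells, where it rested on 2 and 3 read units. It passed the filter through germ libraries alone, which fixed the order of its groups. The log2 ratio of 3.28 ± 0.72 did not pass (limma adjusted p = 0.0565). Over the other settings that kept all 4 libraries, the limma adjusted p was 0.00814 to 0.109. Hoxd1 passed with sex as a term and with limma without a mean-variance trend. Its nearest Hox neighbour, Hoxd3, had the opposite order of fractions.

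Hoxd8, which shares paralogue number 8 with the trunk genes Hoxb8 and Hoxc8, split the germ cells by sex (chr2:74543545-74545364). It had 2.93 SPM in male and 27.2 SPM in female germ cells, and 81.2 SPM in male and 25.6 SPM in female somatic cells. Female germ cells stood level with female somatic cells, at a ratio of 1.06 (95% counting interval 0.941 to 1.2) that was 0.982 with total scaling, and they stood 9.31-fold (7.30 to 11.99) above male germ cells. With germ libraries this far apart, the log2 ratio of germ over somatic was -2.24 ± 1.2 (limma adjusted p = 0.268). Per kb, Hoxd8 ranked first among the Hox genes in each library. It made up 13.4% of the Hox sum in male and 63.1% of it in female germ cells, and 29.3% in male and 20.7% in female somatic cells. In the GENCODE M21 annotation Hoxd8 lies inside the antisense gene Hoxd3os1 without sharing exon bases with it. With the use of strand in counting not given in the sources used here, intronic reads of that antisense gene cannot be told from Hoxd8 reads.

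Male and female germ cells were then compared, 1 library against 1 and therefore without a test. The size rule was a ratio of at least 4 with at least 5 SPM in the higher library. Only Hoxd1 and Hoxd8 reached 5 SPM in a germ library, both in the female one. Hoxd8 met the rule as lower in male germ cells and no Hox gene met it as higher, where 10% of 11766 genes were lower and 14.0% higher. Hoxd1 was 2.78-fold higher (2.13 to 3.67) in female than in male germ cells. The counting intervals given with ratios cover read sampling alone.

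Below 5 SPM the germ libraries differed in the level of some Hox genes, named here after their values were seen. Female germ cells led at Hoxa13, a gene of digits and the hindgut end, with 0.293 SPM in male and 2.79 SPM in female germ cells and 0 in both somatic libraries. Hoxc13, a regulator of hair keratin genes, had 0.521 SPM in male and 1.89 SPM in female germ cells, and 0.0591 SPM in male and 0 SPM in female somatic cells. Hoxa4, a neck patterning gene, had 0.823 SPM in male and 2.69 SPM in female germ cells, and 0.561 SPM in male and 0.156 SPM in female somatic cells. The female to male germ ratio was 9.54 (4.39 to 23.0) at Hoxa13, 3.63 (1.89 to 7.39) at Hoxc13 and 3.27 (1.92 to 5.70) at Hoxa4.

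Male germ cells led at several HoxB genes and at Hoxc9. Hoxb4, known for expanding blood stem cells, had 3.46 SPM in male and 0 SPM in female germ cells, and 0 in male and 0.127 SPM in female somatic cells. Hoxb13, a prostate and tail gene, had 2.31 SPM in male germ cells, against 0 in each of the other 3 libraries. Hoxb7, a trunk gene, had 1.59 SPM in male and 0 SPM in female germ cells, and 0.305 SPM in male and 0.545 SPM in female somatic cells. Hoxb1, which specifies facial motor neurons, was lower at 0.585 SPM in male germ cells and listed at 0 elsewhere. These genes did not form an unbroken block: Hoxb5, between Hoxb4 and Hoxb7, had just 0.0366 SPM in the male germ library, where Hoxb8, beside Hoxb7, was listed at 0. In the HoxC cluster Hoxc9, of thoracic motor neurons, had 1.99 SPM in male and 0 SPM in female germ cells, and 0.906 SPM in male and 0.885 SPM in female somatic cells. It stood 2.20-fold (1.22 to 4.21) higher in male germ cells than in male somatic cells.

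**Figure D4:**
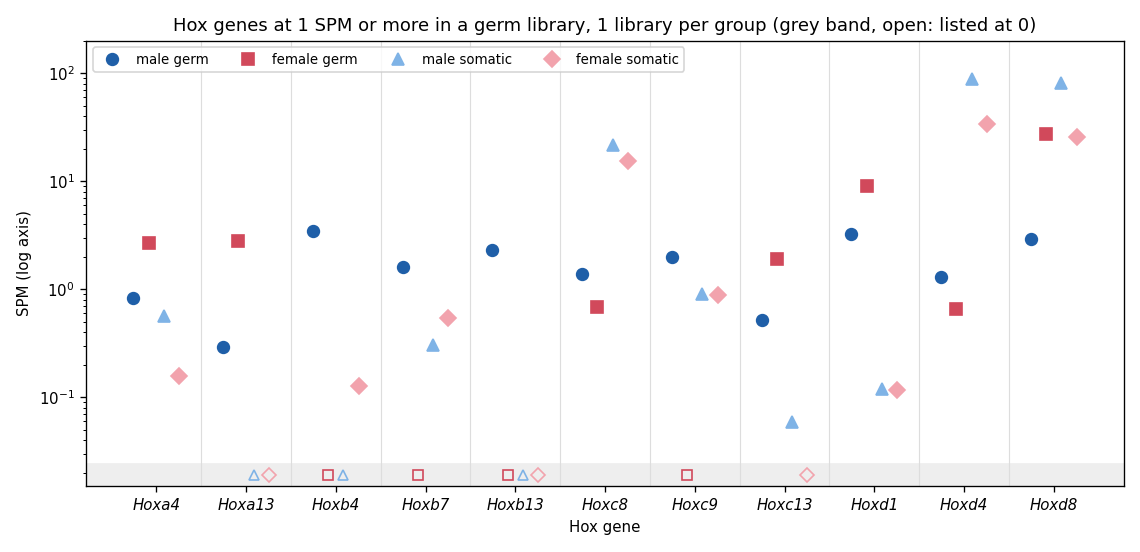
SPM (log axis) in the 4 libraries for the Hox genes that reached 1 SPM in a germ library, with values of 0 drawn open in the grey band. Female germ squares lie highest of the germ points at Hoxa4, Hoxa13, Hoxc13, Hoxd1 and Hoxd8, and male germ circles at Hoxb4, Hoxb7, Hoxb13, Hoxc8, Hoxc9 and Hoxd4.

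Male germ cells held more Hox genes at a detectable level than female germ cells, all of them low. At a common level of 0.179 SPM, male cells of the germ line had 26 of the 39 Hox genes and female ones 13, against 24 in male and 25 in female somatic cells. Among all 20299 genes, 82.7% in male and 73.0% in female germ cells reached it, against 74.0% in male and 73.7% in female somatic cells, so the Hox share of 66.7% in male germ cells was below that of all genes, and the share of 33.3% in female germ cells more so. Hox values ran up to 3.46 SPM in male germ cells with a median of 0.411 SPM, and up to 27.2 SPM in female germ cells with a median of 0. There were 14 Hox genes at the level in male and not in female germ cells, and 1, Hoxb2, the other way round. Hoxb2 had 0.146 SPM in male and 0.237 SPM in female germ cells, 4 read units in each, with a ratio interval that held 1. Of all genes, 11.4% were at the level in male and not in female germ cells, and 1.71% the other way round. Female germ cells had the fewer read units, so the same level rests on fewer reads there. At 1 SPM the numbers fell to 8 in male and 5 in female germ cells, and 18 in male and 17 in female somatic cells.

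By fraction, 19 Hox genes were detected in both germ and somatic cells, 8 in germ cells alone, 9 in somatic cells alone and 3 (Hoxb5, Hoxc11 and Hoxc12) in no library. Of all genes, 75% were detected in both, 9.35% in germ cells alone and 2.02% in somatic cells alone. The 8 detected in germ cells alone included Hoxa13, Hoxb1, Hoxb4, Hoxb13, Hoxc13, Hoxd1 and Hoxd13, mostly from the ends of the clusters. Hoxd13, of digits and external genitalia, had 0.402 SPM in male and 0.601 SPM in female germ cells and was listed at 0 in both somatic libraries. The 9 detected in somatic cells alone were Hoxa5, Hoxa6, Hoxa10, Hoxa11, Hoxb6, Hoxb8, Hoxb9, Hoxc4 and Hoxd12. Hoxa10 and Hoxa11, which shape the uterus, were low: Hoxa10 had 0 SPM in male and 0.0197 SPM in female germ cells, against 1.14 SPM in male and 1.65 SPM in female somatic cells, and Hoxa11 had 0.282 SPM in female somatic cells alone.

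Within each sex, germ cells were also set against somatic cells, 1 library against 1. No Hox gene reached 5 SPM in male germ cells, so each of those at 5 SPM or more in male cells passed the minimum through the somatic library alone, which fixed its direction, and their counts and median are a description. Of the 9 Hox genes at 5 SPM or more in male cells, 9 were at least 4-fold lower in male germ cells than in male somatic cells and 0 higher, where 18.4% of 12636 genes were lower and 12.4% higher. The median log2 ratio was -3.97 over these Hox genes and -0.16 over all genes. Hoxd9 was 113-fold lower in male germ cells, Hoxd4 68.5-fold, Hoxd10 65.6-fold, Hoxd8 27.8-fold and Hoxc8 15.7-fold. Of the 9 Hox genes at 5 SPM or more in female cells, 7 were lower in female germ cells than in female somatic cells, 1 (Hoxd1) was higher and Hoxd8 was level. Of these 9, only Hoxd1 and Hoxd8 reached 5 SPM in female germ cells. The 7 lower genes passed the minimum through the somatic library alone and Hoxd1 through the germ library alone, which fixed their direction. The female counts and median are therefore a description too. Over all genes, 23.6% of 12245 were lower and 12.5% higher. The median log2 ratio was -4.50 over these Hox genes and -0.03 over all genes. Hoxd9 was 92.3-fold lower in female germ cells, Hoxd4 51.6-fold and Hoxc8 22.4-fold.

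Markers of gonadal stroma were also lower in germ cells than in the somatic cells of the same sex. The 6 stroma markers summed to 208 SPM in male and 59.7 SPM in female germ cells, against 15970 SPM in male and 5949 SPM in female somatic cells, with none at 0 in any library. Single markers in germ cells stood at 0.782% to 2.85% of their somatic level in males and 0.560% to 5.68% in females. Hoxd4 stood at 1.46% in males and 1.94% in females, Hoxd9 at 0.885% and 1.08%, and Hoxc8 at 6.37% and 4.45%. Hoxc6 stood at 3.16% in males and 0.487% in females, and Hoxd3 at 3.96% and 3.21%. Hoxd8 stood at 3.60% in males and at 106% in females, and Hoxd1 at over its somatic level in both sexes. In males Hoxc6, Hoxc8, Hoxd1, Hoxd3 and Hoxd8 lay above the range of the stroma markers, and Hoxd4 and Hoxd9 within it. In females Hoxd1 and Hoxd8 lay above the range and Hoxc6 below it, with Hoxc8, Hoxd3, Hoxd4 and Hoxd9 within it. The part of somatic RNA in the low germ values was not tested.

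Male and female somatic cells differed in HoxD more than in HoxC. No Hox gene reached the 4-fold rule among the 9 at 5 SPM or more, where 3.0% of 11835 genes were higher and 3.17% lower in male somatic cells. The median log2 ratio of male over female was 1.34 over these 9 and 0.01 over all genes. With 1 library per sex there is no replicate check. Hoxd10 was 3.64-fold higher (3.21 to 4.14) in male somatic cells, Hoxd8 3.17-fold (2.89 to 3.49), Hoxd9 3.03-fold (2.73 to 3.36), Hoxd3 2.64-fold (2.19 to 3.17) and Hoxd4 2.59-fold (2.38 to 2.82). Hoxd11, of the kidney and forearm, had 3.98 SPM in male and 2.00 SPM in female somatic cells, a ratio of 1.99 (1.36 to 2.93). In the HoxC cluster, Hoxc8 was 1.40-fold higher (1.21 to 1.62) in male somatic cells and Hoxc5 1.55-fold higher (1.30 to 1.85) in female somatic cells. Hoxc4, at a male to female ratio of 1.14 (0.860 to 1.52), and Hoxc6, at 1.07 (0.895 to 1.28), had intervals that held 1, and Hoxc6 was 0.978 with total scaling. The intervals of Hoxd3, Hoxd4, Hoxd8, Hoxd9 and Hoxd10 all lay above those of the 4 HoxC genes.

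**Figure D5:**
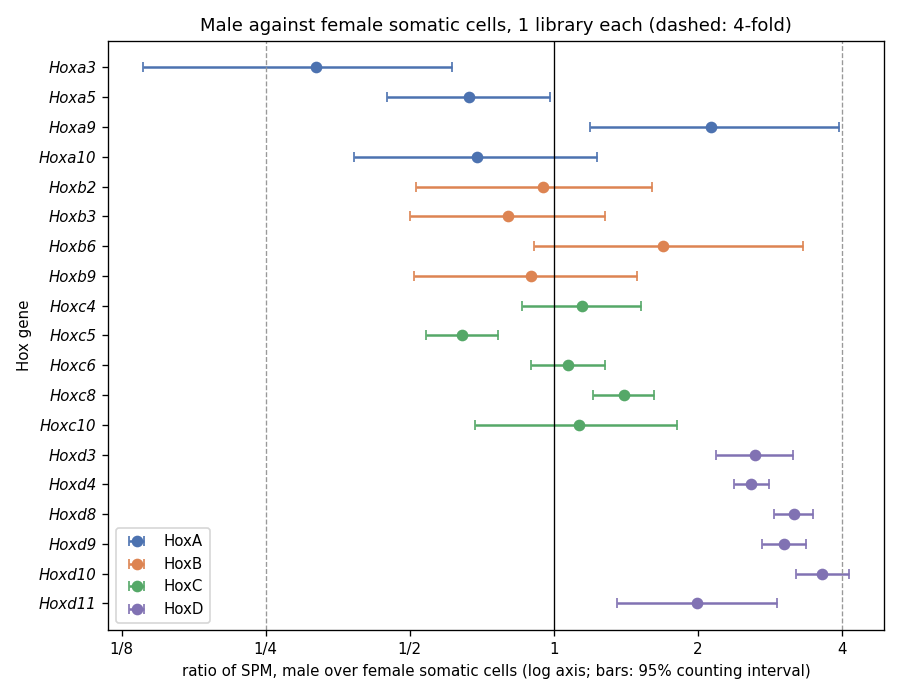
Ratio of SPM in male over female somatic cells (log axis) for the Hox genes at 1 SPM or more in a somatic library, coloured by cluster, with 95% counting intervals and dashed lines at 4-fold. The HoxD genes lie between 1.99 and 3.64, and Hoxc4 to Hoxc10 between 0.643 and 1.40.

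The HoxA and HoxB genes were too low for the size rule, and a few had intervals away from 1. Hoxa3, a thymus and throat gene, had 0.630 SPM in male and 1.98 SPM in female somatic cells, 3.14-fold higher (1.63 to 7.20) in females. Its interval in the files overlaps those of Hoxa4, Hoxa5 and Hoxa6. Hoxa5 was 1.5-fold higher (1.02 to 2.23) in female somatic cells, and Hoxa9, with 1.83 SPM in male and 0.856 SPM in female somatic cells, 2.14-fold higher (1.19 to 3.96) in males. Hoxb2, Hoxb3, Hoxb6 and Hoxb9, at 0.808 to 2.25 SPM in the somatic libraries, had intervals that held 1.

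The cell mixtures of the somatic libraries differed by sex, and their part in the HoxD ratios was not tested. Each of the 6 stroma markers was higher in male somatic cells, by 2.01 to 3.68-fold, a range that holds the ratios of Hoxd3, Hoxd4, Hoxd8, Hoxd9 and Hoxd10. The 4 erythroid markers summed to 30050 SPM in male and 11090 SPM in female somatic cells, and the 5 fetal Leydig markers to 805 and 90.5 SPM. Against this, the 5 pregranulosa markers summed to 102 SPM in male and 999 SPM in female somatic cells, and the 3 coelomic epithelium markers to 103 and 487 SPM. The 8 mesonephric and Müllerian duct markers summed to 120 SPM in male and 444 SPM in female somatic cells, mostly from Wt1, which gonadal cells also express, at 108 SPM in male and 367 SPM in female somatic cells. Of the other duct markers, Emx2 had 9.77 SPM in male and 65.5 SPM in female somatic cells, Pax8 1.75 and 8.04 SPM, and Gata3 0.217 and 2.02 SPM. Wnt7a had 0 SPM in male and 1.31 SPM in female somatic cells. Pax2, Lhx1 and Wnt9b were at 0.117 SPM or less in both. Endothelial markers summed to 167 SPM in male and 240 SPM in female somatic cells, with Kdr at 72.8 and 182 SPM and Cdh5 the other way, at 66.1 SPM in male and 28.2 SPM in female somatic cells. Leukocyte markers summed to 29.4 SPM in male and 11.8 SPM in female somatic cells. The 6 Sertoli markers summed to 709 SPM in male and 296 SPM in female somatic cells, of which Gata4, at 221 SPM in male and 277 SPM in female somatic cells, was most of the female sum. The Sertoli genes Amh (273 and 0.38 SPM) and Dhh (96.9 and 0.253 SPM) were near 0 in female somatic cells.

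Hox proteins bind DNA together with Pbx, Meis and Pknox cofactors. In the germ against somatic test 1 of these 9 genes passed, as lower, where 5.56% of all genes tested were lower. Meis1, the partner of many posterior Hox proteins, had 3.17 SPM in male and 3.49 SPM in female germ cells, against 122 SPM in male and 101 SPM in female somatic cells. Its log2 ratio was -4.87 ± 0.54 (limma adjusted p = 0.0328). Pknox2 just missed the threshold with 0.878 SPM in male and 1.75 SPM in female germ cells, against 63.5 SPM in male and 18.2 SPM in female somatic cells (limma adjusted p = 0.0501). Both Pbx2 and Pbx3 had their highest level in a germ library: Pbx2 reached 403 SPM in male and 70.7 SPM in female germ cells, against 88.7 SPM in male and 126 SPM in female somatic cells, while Pbx3 had 9.30 SPM in male and 185 SPM in female germ cells, against 60 SPM in male and 87.7 SPM in female somatic cells. Over the 9 cofactors the median log2 ratio was -2.89, against -0.11 over all genes.

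Of the regulators that act on Hox clusters, the 8 trithorax and Polycomb-linked genes were present in all 4 libraries, and none passed in either direction. Ezh2, the Polycomb methyltransferase gene, had 27.1 SPM in male and 97.4 SPM in female germ cells, against 125 SPM in male and 62.2 SPM in female somatic cells (limma adjusted p = 0.536). Their median log2 ratio was 0.15. Cdx genes, caudal homeobox activators of the central Hox genes in the embryo, had germ signal: Cdx1 was at 1.62 SPM in male and 7.63 SPM in female germ cells, against 0 in male and 0.243 SPM in female somatic cells (limma adjusted p = 0.101). Cdx2 was at 0.0366 SPM in male and 7.32 SPM in female germ cells and listed at 0 in both somatic libraries. Cdx4 had 0.878 SPM in male germ cells, against 0 in each of the other 3 libraries. Of the 6 Cdx and ParaHox genes, Cdx1 alone could be tested, and none passed.

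Of the 16 other genes within 200000 bases of a cluster end, 10 were tested and 1 passed, as higher in germ cells. Of all genes tested, 5.56% passed as lower and 2.50% as higher. A few neighbours, named after their values were seen, shared a Hox neighbour's order of libraries. Skap2, an adaptor protein gene beside the HoxA cluster, was higher in germ cells, with 73.0 SPM in male and 80.5 SPM in female germ cells, against 8.84 SPM in male and 9.70 SPM in female somatic cells (log2 ratio 2.98 ± 0.50, limma adjusted p = 0.0379). Evx1, the homeobox gene beyond Hoxa13, had 0.302 SPM in male and 2.85 SPM in female germ cells and 0 in both somatic libraries, close to the Hoxa13 values. Skap1, beyond Hoxb1, had 13.7 SPM in male and 0.385 SPM in female germ cells, and 0.374 SPM in male and 0.477 SPM in female somatic cells. Ttll6, on the Hoxb13 side, had 3.31 SPM in male and 0.385 SPM in female germ cells, and 0.482 SPM in male and 0 SPM in female somatic cells. Beside HoxD, Evx2 was listed at 0 in all 4 libraries. Mtx2, a mitochondrial import gene beyond Hoxd1, had 143 SPM in male and 207 SPM in female germ cells, against 83.5 SPM in male and 76.8 SPM in female somatic cells (limma adjusted p = 0.142).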

How the data were processed

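Strand-specific, rRNA-depleted RNA-seq of 4 libraries was used as deposited. The authors deposited a gene signal per library in a column headed as counts, per the file headers. It is whole-numbered but clusters at a spacing of 4.102 for male germ, 6.068 for female germ, 6.11 for male somatic and again 4.102 for female somatic cells. Between 43.1% and 54.3% of low values lay on rounded multiples, so it was treated as scaled signal and not as counts, and read units are estimates. If 1 read pair counts as more than 1 unit, intervals are too narrow. The tools named are CASAVA 1.9, TopHat 1.2.0, edgeR and the mm9 build, per the submitters' processing notes, with no role given. The counting program and its strand setting count as not given in the sources used here.

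Repeated rows (74 of 20373) were dropped. Totals of 99.3 to 107.5 M (M for mega) were adjusted by trimmed-mean-of-M factors of 0.945 to 1.07. The comparison of germ with somatic cells used limma 3.58.1 (R 4.3.3) with a mean-variance trend on log2(SPM + 0.5), which understates changes of low genes. The scripts were tested on simulated data. Sex comparisons have 1 library a side: ratios carry exact conditional binomial 95% intervals on read units, and for the 4-fold rule a 0 was replaced by 3 read units. Members at 5 SPM or more in any library are given in full, others by range or as named after their values. The members, the cofactor, regulator, neighbour and marker lists and the tests were chosen with earlier results of these data known. Certain single genes are not reported here. Promoter windows are RefSeq's (GRCm38.p6). Alternatives were other scalings, pseudocounts, filters, fold rules and libraries left out.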

Additional observations from a re-analysis of the deposited data

Results flagged for a closer look

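Hoxd8 changed direction between the fractions. Male over female, its log2 ratio of SPM was -3.22 in germ cells (2.93 SPM in male and 27.2 SPM in female germ cells) and 1.67 in somatic cells (81.2 SPM in male and 25.6 SPM in female somatic cells). It was picked out because the male library was the lower in the germ pair and the higher in the somatic pair. Hoxd8 was not alone in this. Hoxa4, at lower levels, had 0.823 SPM in male and 2.69 SPM in female germ cells. In somatic cells Hoxa4 had 0.561 SPM in the male and 0.156 SPM in the female library, with a ratio interval that held 1. With 1 library in each group these differences were not tested.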

How the results depend on the processing

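The count of 7 Hox genes lower in germ cells became 3 with a pseudocount of 5 SPM and 0 with no filter on low values (18703 genes tested, 20 Hox genes and 4625 genes in all at an unadjusted limma p under 0.05). It became 10 with sex as a term, which makes each sex a block, and 9 without a mean-variance trend, and ranged from 0 to 8 with 1 library left out. The 0 higher became 1 (Hoxd1) with sex as a term and 1 without a mean-variance trend. Over all genes, 786 lower became 0 with no filter and 1955 with sex as a term, 186 to 2508 with 1 library left out. The 354 higher became 167 with a pseudocount of 5 SPM, 0 with no filter and 1094 with sex as a term, 139 to 1754 with 1 library left out. A library left alone in its cell type was assumed to vary like the others. The labels give no replicate numbers, so sex was the only block. At 2-fold, 5 Hox genes were higher in male than in female somatic cells (9.61% of all genes over the same minimum, as in each bracket here) and 2 lower in male than in female germ cells (26.3%). With a minimum of 1 SPM, 4 were higher (18.6%) and 2 lower (9.61%) in male than in female germ cells; 4 higher (16.5%) and 18 lower (17.9%) in male germ than in male somatic cells; and 4 higher (14.3%) and 16 lower (24.8%) in female germ than in female somatic cells. With a minimum of 20 SPM, 5 were lower (18.6%) in male germ cells, and 0 higher (12.1%) and 2 lower (21%) in female germ cells, than in the somatic cells of their sex. Detection at 1 SPM left 8 in male and 5 in female germ cells. The Hox sums per kb became 17.87 for male germ cells and 181.5 (male) and 83.21 (female) for somatic cells with upper-quartile scaling, and 183.7 (male) and 89.89 (female) for somatic cells with total scaling; undivided by length they were 27.88 (male) and 47.64 (female) for germ cells and 377.9 (male) and 174.4 (female) for somatic cells. No log2 ratio of germ over somatic cells changed sign among the 17 Hox genes tested. The filter left little room for a change, as 13 passed it through somatic libraries alone and 1 through germ libraries alone. Genes also dropped out when a library was left out, with 4 Hox genes tested without the male or without the female somatic library. With total scaling, 2 ratios near 1 crossed it: Hoxc6 in male over female somatic cells, from 1.07 to 0.978, and Hoxd8 in female germ over female somatic cells, from 1.06 to 0.982. Scaling moved the median log2 ratio of all genes by up to 0.31, from -0.16 to 0.15 with upper-quartile scaling in male germ against male somatic cells. The causes were not tested. Low read numbers limit most Hox values in germ cells, Hoxd8 (455 read units) and Hoxd1 (152) in female germ cells being the deepest, and 22 of 39 Hox genes were listed at 0 in female germ cells.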
